A study of Arabidopsis thaliana with 12 samples.

Results

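The genes described here are those of Arabidopsis thaliana whose transcript level peaked at 10 °C, between the control temperature of 22 °C and the colder treatments at 4 and 0 °C. A gene was taken as a member when its mean at 10 °C was at least 5 CPM (counts scaled to a common library total) and at least 2 times its mean at each of 0, 4 and 22 °C. All 3 libraries at 10 °C also had to lie above every other library. Of 33560 annotated loci, 273 (0.813%) met this rule, and 14508 loci reached the level of 5 CPM at 10 °C. The levels at all 4 temperatures chose the members, so the peak itself is a description and was not tested.

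Plantlets were of the ecotype Columbia-0 with no transgene or mutation named, 14 days old, and grown on agar plates with sucrose under 16 h of light and 8 h of darkness. Plantlets were kept at 0, 4 or 10 °C or at the control temperature of 22 °C, with 3 libraries for each temperature. Each library came from a pool of 10 whole plantlets of 1 plate, roots and shoots together. The sample labels give 24 h of cold for every treatment, whereas the series text gives 24, 48 and 72 h in turn for 0, 4 and 10 °C. If that text holds, temperature and duration cannot be told apart in any comparison below, and the samples at 10 °C had the longest cold. The hour of harvest and the number of chambers per temperature are named in neither labels nor series text. The p-values therefore measure the spread between these plates.

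Libraries held 32870040 to 41683299 estimated counts. Of the marker lists, 19 of 20 root markers, 17 of 17 guard cell and stomatal markers, 17 of 17 trichome markers and 15 of 15 vascular markers reached 1 CPM in at least 1 library, against 2 of 20 seed markers and 5 of 14 floral and pollen markers. The seed regulator gene LEC1 and the floral genes PGA4 and DYT1 were at 0 in every library. Normalization bears on the size of the peak. Trimmed-mean (TMM) factors of edgeR were 0.792 to 0.812 for 0 °C, 0.972 to 0.976 for 4 °C, 1.19 for 10 °C and 1.06 to 1.08 for 22 °C, so levels at 10 °C stand higher on the deposited CPM scale than on the TMM scale. When CPM values were scaled by these factors, 111 loci met the rule, all of them among the 273. On that scale all 273 members still had their highest mean at 10 °C, by a median of 1.91 times the next highest temperature and by at least 1.5 times in 270. The smallest such ratio was 1.32.

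Cold is known to set off a wide change of transcription in Arabidopsis, led by the CBF factors, which bind the promoters of cold-regulated genes. Anthocyanins are red flavonoid pigments made in vegetative tissue in cold, strong light, sugar supply and nutrient shortage. Their late enzymes are switched on by complexes of MYB, bHLH and WD40 proteins, of which PAP1 is the best known MYB. Aliphatic glucosinolates are sulfur-rich defence compounds built from chain-lengthened methionine. Nitrate and sulfate are taken up by root transporters, reduced with electrons from NADPH and ferredoxin, and built into amino acids.

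Members stood a median of 2.28 times above the next highest temperature on the deposited scale, with a range of 2.00 to 16.8. The ratio was at least 3 in 51 members, at least 4 in 22, at least 5 in 13 and at least 10 in 4. Mean levels at 10 °C ran from 5.04 to 1907 CPM with a median of 29.4 CPM. Together the members held 0.408 to 0.418% of a library's CPM at 0 °C and 0.715 to 0.737% at 4 °C. They held 1.97 to 2.00% at 10 °C and 0.686 to 0.700% at 22 °C. Values with ± are means and SD over 3 libraries unless an adjusted p follows. On the deposited scale, the next highest temperature was 4 °C for 138 members, 22 °C for 123 and 0 °C for 12. The lowest there was 0 °C for 227 members, 22 °C for 34 and 4 °C for 12. The deposited scale places levels at 0 °C lower than TMM factors do. In the edgeR test with TMM factors, 143 members were lower and 52 higher at 0 than at 22 °C. At the edges of the rule, AT5G28919 was just inside the ratio at 2.001 and NRPC2 just outside at 1.997. GA20OX1 was just inside the level at 5.04 CPM and AT5G22460 just outside at 4.98 CPM. DRB5 was just inside the separation of libraries, and NET1A, PXN and AT4G31210 failed it after passing the level and the ratio. All 273 members passed the filter on low counts of the tests below. The reference annotation held 272 of them, of which 270 code for proteins.

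**Figure D1:**
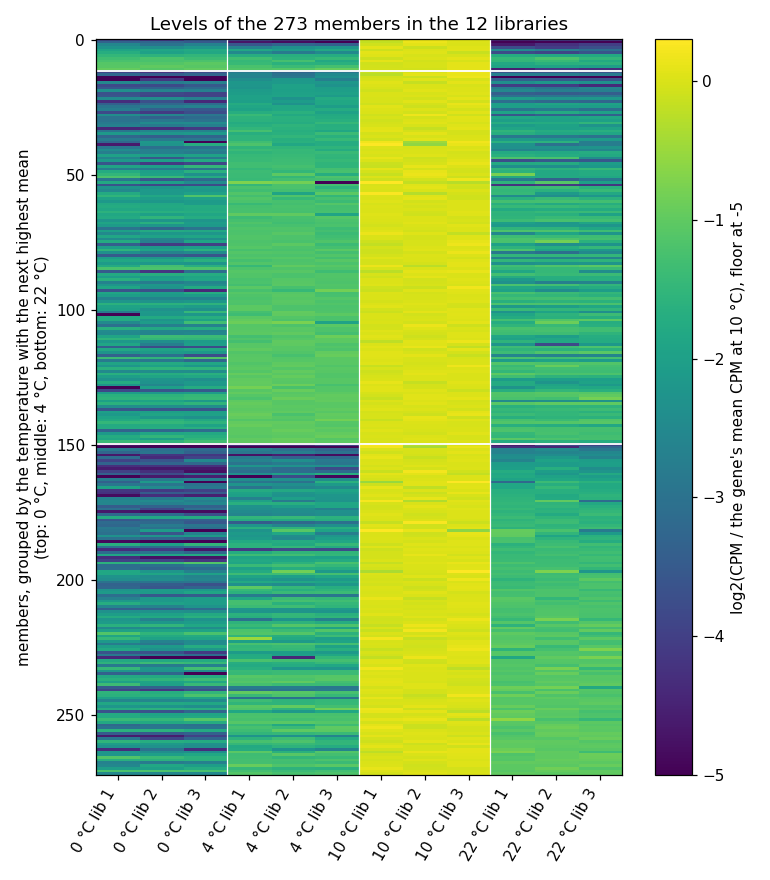
Each row is 1 of the 273 members and each column 1 of the 12 libraries, coloured by log2 of the CPM over the gene's mean CPM at 10 °C, with a floor at -5. Rows are grouped from the top by the temperature with the next highest mean: 12 members for 0 °C, 138 for 4 °C and 123 for 22 °C. The 3 libraries at 10 °C are brightest by construction. The libraries at 0 °C are the darkest for most rows on this scale, which places 0 °C lower than TMM factors do.

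The steepest peaks belonged to a transporter gene, a flavonoid enzyme gene and genes with little annotation. AT2G04050 encodes a MATE efflux protein, a family of transporters that export small organic molecules from the cell. Levels were 0.411, 0.0908 and 0.163 CPM at 0 °C and 0.559, 0.556 and 0.721 CPM at 4 °C. It had 13, 9.03 and 11.3 CPM at 10 °C and 0.454, 0.774 and 0.753 CPM at 22 °C. It was under 1 CPM in all 9 libraries away from 10 °C, and the ratio to the next highest mean was 16.8. Its chromosomal neighbour DTX1, a second MATE gene, stood at 26.8 ± 1.46 CPM at 0 °C, 25.9 ± 1.94 CPM at 4 °C, 53.8 ± 3.02 CPM at 10 °C and 2.69 ± 0.349 CPM at 22 °C. DTX1 was thus high in all 3 cold treatments and AT2G04050 in 1 of them, although reads of such similar neighbours may be split between them with error. PILS7 (AT5G65980), an auxin efflux carrier family gene, stood at 0, 0 and 0.183 CPM at 0 °C and 0, 0 and 0 CPM at 4 °C. It had 7.65, 5.04 and 7.29 CPM at 10 °C and 0.337, 0.31 and 0.687 CPM at 22 °C. It was listed at 0 in 5 of the 6 libraries at 0 and 4 °C. AT4G12735, which has no described function, averaged 1.15 ± 0.103 CPM at 0 °C, 0.414 ± 0.0449 CPM at 4 °C, 11.9 ± 1.34 CPM at 10 °C and 0.286 ± 0.0207 CPM at 22 °C, and AT1G53542, also undescribed, averaged 0.643 ± 0.0375 CPM at 0 °C, 0.98 ± 0.179 CPM at 4 °C, 6.28 ± 0.854 CPM at 10 °C and 0.925 ± 0.0436 CPM at 22 °C.

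FT, the mobile signal that leaves the leaf to start flowering, was among the 5 steepest members. Its levels were 0.974, 0.829 and 1.09 CPM at 0 °C and 2.04, 1.53 and 1.97 CPM at 4 °C. It had 13.2, 14.8 and 16.2 CPM at 10 °C and 1.23, 1.29 and 1.2 CPM at 22 °C. The 3 libraries at 10 °C did not overlap with any other, and the ratio to 4 °C was 7.97, or 6.44 after TMM scaling. Between the other temperatures, FT was called higher at 4 than at 22 °C and was not called at 0 against 22 °C. FBH3, a bHLH factor whose family is known to act upstream of the FT activator CO, averaged 3.17 ± 0.528 CPM at 0 °C, 10.2 ± 0.284 CPM at 4 °C, 43.4 ± 0.989 CPM at 10 °C and 19.8 ± 0.569 CPM at 22 °C. The relative TSF, a close copy of FT in function, stayed under 1 CPM on average at every temperature. Of the 24 tested genes of the flowering time list that are not members, 12 were higher and 4 lower at 10 than at 22 °C, where 32.4% of all tested genes were higher and 32.3% lower (edgeR quasi-likelihood test, adjusted p under 0.05). FT was the list's 1 member.

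Among the flavonoid genes, the late anthocyanin enzymes and their regulators peaked at 10 °C, whereas the early enzymes stood highest at 4 °C. Members were the MYB factors PAP1 and MYB90, the bHLH factor EGL3, and the enzymes DFR, LDOX, UF3GT and AT5MAT, which makes 7 of the 28 genes of the list. DFR, dihydroflavonol 4-reductase, commits the pathway to anthocyanins. Its levels were 3.8, 3.06 and 4.57 CPM at 0 °C and 3.5, 2.91 and 3.33 CPM at 4 °C. It had 49, 55.7 and 51.9 CPM at 10 °C and 2.39, 3.0 and 2.95 CPM at 22 °C. LDOX, the next enzyme, stood at 7.36, 5.46 and 6.81 CPM at 0 °C and 3.62, 4.44 and 4.17 CPM at 4 °C. It had 40.5, 45.5 and 42.8 CPM at 10 °C and 1.71, 2.27 and 2.66 CPM at 22 °C. For both genes the 3 libraries at 10 °C were far above the other 9, by 13.7 times the next highest mean for DFR and 6.56 times for LDOX. UF3GT, which adds a sugar to anthocyanins, averaged 3.62 ± 0.333 CPM at 0 °C, 2.11 ± 0.271 CPM at 4 °C, 12.9 ± 1.03 CPM at 10 °C and 0.948 ± 0.0928 CPM at 22 °C. AT5MAT, which adds a malonyl group, averaged 1.45 ± 0.246 CPM at 0 °C, 2.81 ± 0.393 CPM at 4 °C, 8.83 ± 0.872 CPM at 10 °C and 0.825 ± 0.0733 CPM at 22 °C. AT1G03940, an acyltransferase gene of the HXXXD type outside the list, averaged 2.01 ± 0.243 CPM at 0 °C, 2.03 ± 0.373 CPM at 4 °C, 15.9 ± 0.23 CPM at 10 °C and 2.52 ± 0.394 CPM at 22 °C. The 7 anthocyanin members counted below are genes of the list only and may not be every member of the pathway. In whole plantlets a higher level cannot be told apart from a larger share of the cells that express the gene.

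The regulators had their peak at the same temperature. MYB90 stood at 0.122, 0.172 and 0.0287 CPM at 0 °C and 1.34, 1.14 and 1.66 CPM at 4 °C. It had 8.22, 7.83 and 9.52 CPM at 10 °C and 0.0299, 0.199 and 0.175 CPM at 22 °C. PAP1 stood at 0.761, 1.14 and 0.718 CPM at 0 °C and 3.69, 3.54 and 4.17 CPM at 4 °C. It had 14.8, 15.6 and 14.4 CPM at 10 °C and 1.76, 1.61 and 1.55 CPM at 22 °C. Both had 4 °C as their next highest temperature, and neither overlapped with it at 10 °C. EGL3, their bHLH partner, averaged 1.05 ± 0.145 CPM at 0 °C, 3.38 ± 0.157 CPM at 4 °C, 7.3 ± 0.661 CPM at 10 °C and 2.52 ± 0.201 CPM at 22 °C. TT8, another bHLH partner, had 0.709 ± 0.131 CPM at 0 °C, 2.28 ± 0.375 CPM at 4 °C, 4.4 ± 0.94 CPM at 10 °C and 0.357 ± 0.0788 CPM at 22 °C. TT8 thus stayed under the level of 5 CPM that the rule asks for, and also under 2 times its mean at 4 °C. The repressor MYBL2, which competes with the activating MYB proteins, was at 26.7 ± 1.3 CPM at 0 °C, 67.8 ± 1.33 CPM at 4 °C, 71 ± 1.4 CPM at 10 °C and 184 ± 4.02 CPM at 22 °C. After TMM scaling 6 of the 7 members still met the rule, and EGL3 did not.

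The early enzymes set the contrast. Chalcone synthase TT4, the first committed step of all flavonoids, had 478 ± 5.04 CPM at 0 °C, 2361 ± 46.8 CPM at 4 °C, 1549 ± 62.5 CPM at 10 °C and 125 ± 4.29 CPM at 22 °C. Flavanone 3-hydroxylase F3H had 194 ± 9.92 CPM at 0 °C, 935 ± 27.2 CPM at 4 °C, 349 ± 5.97 CPM at 10 °C and 25.5 ± 1.56 CPM at 22 °C, and flavonol synthase FLS1 had 119 ± 5.47 CPM at 0 °C, 495 ± 2.18 CPM at 4 °C, 238 ± 4.75 CPM at 10 °C and 19 ± 2.45 CPM at 22 °C. TT5 and TT7, the isomerase and the 3'-hydroxylase of the pathway, also had their highest mean at 4 °C, at 465 ± 15.7 and 81.4 ± 0.718 CPM (SD, n = 3). In all 5 of these early genes each library at 4 °C lay above each library at 10 °C, the reverse of the late enzymes. Of the 18 tested list genes that are not members, 16 were higher and 2 lower at 10 than at 22 °C (background 32.4% and 32.3%). At 4 against 22 °C the numbers were likewise 16 and 2 (background 36.3% and 37.6%).

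**Figure D2:**
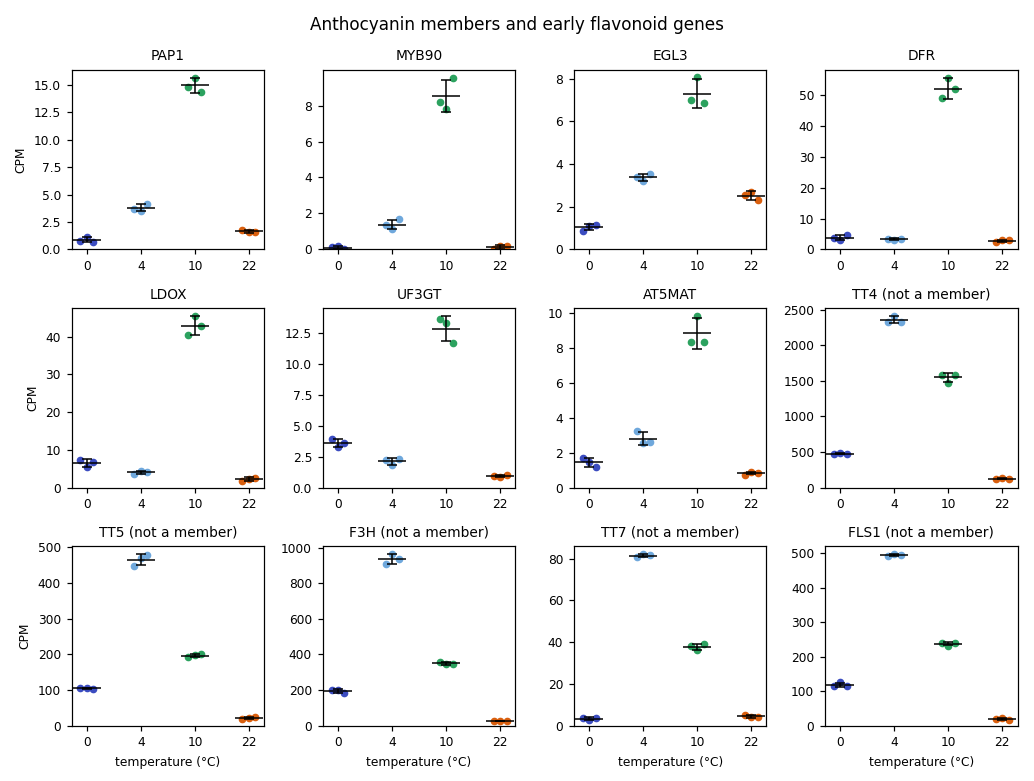
CPM of the 7 anthocyanin members and of 5 early flavonoid genes that are not members, by temperature in °C, with points for the 3 libraries and black marks for the mean ± SD. The members stand highest at 10 °C, for example DFR at 52.2 CPM, whereas the 5 early genes stand highest at 4 °C, for example TT4 at 2361 CPM.

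The 7 anthocyanin members were also compared between the other temperatures, where the rule caps their levels. At 4 against 22 °C all 7 were higher (background 36.3% of genes), with a median log2 fold change of 1.29. MYB90 was higher by a log2 fold change of 3.42 ± 0.40, adjusted p = 6.66e-06. DFR was higher by only 0.36 ± 0.14, adjusted p = 0.0368, and it no longer passed with total counts, upper-quartile factors or a filter at a mean of 5 CPM. Nor did it pass without the first or the third library at 4 °C, the third at 10 °C or the first at 22 °C, where the largest adjusted p was 0.137. At 0 against 22 °C 4 were higher and 2 lower (background 35.5% and 38.8%). In parentheses are log2 fold changes ± SE of the edgeR test, here and below. The enzymes UF3GT (2.36 ± 0.14, adjusted p = 7.79e-09), LDOX (1.99 ± 0.15, adjusted p = 1.04e-07), AT5MAT (1.22 ± 0.18, adjusted p = 4.17e-05) and DFR (0.87 ± 0.14, adjusted p = 0.000105) were higher at 0 °C. The regulators EGL3 (-0.83 ± 0.14, adjusted p = 0.000137) and PAP1 (-0.48 ± 0.17, adjusted p = 0.0229) were lower. PAP1 did not pass in DESeq2 (adjusted p = 0.0668), or without the first or the third library at 0 °C or the first at 22 °C, where the largest adjusted p was 0.148. MYB90 did not pass at 0 against 22 °C, where its mean at 0 °C was 0.107 ± 0.0725 CPM against 0.134 ± 0.0913 CPM in the controls.

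Windows of 250 bases upstream of these genes were read from the reference genome to show what the co-peaking promoters hold. Sequences and gene starts are those of RefSeq for assembly TAIR10.1, with coordinates from that assembly, while the submitters name TAIR10. The letters CACGTG, known as the G-box and bound by bHLH and bZIP factors, are in capitals. They were singled out after the counts of all motifs were seen.
DFR: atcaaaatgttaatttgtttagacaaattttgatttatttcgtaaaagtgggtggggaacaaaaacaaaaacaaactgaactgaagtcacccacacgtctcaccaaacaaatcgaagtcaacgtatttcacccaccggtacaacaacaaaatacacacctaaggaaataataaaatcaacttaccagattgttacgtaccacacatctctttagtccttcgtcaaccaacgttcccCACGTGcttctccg
UF3GT: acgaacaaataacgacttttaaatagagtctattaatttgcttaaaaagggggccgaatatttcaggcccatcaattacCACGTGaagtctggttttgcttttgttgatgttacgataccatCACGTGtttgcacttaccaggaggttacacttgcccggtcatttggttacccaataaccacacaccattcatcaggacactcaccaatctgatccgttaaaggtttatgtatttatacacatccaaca
MYB90: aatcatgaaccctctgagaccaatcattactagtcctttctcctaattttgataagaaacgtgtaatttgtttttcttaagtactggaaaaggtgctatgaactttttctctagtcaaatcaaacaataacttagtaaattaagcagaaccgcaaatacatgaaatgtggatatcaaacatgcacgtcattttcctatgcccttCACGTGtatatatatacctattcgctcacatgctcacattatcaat
LDOX: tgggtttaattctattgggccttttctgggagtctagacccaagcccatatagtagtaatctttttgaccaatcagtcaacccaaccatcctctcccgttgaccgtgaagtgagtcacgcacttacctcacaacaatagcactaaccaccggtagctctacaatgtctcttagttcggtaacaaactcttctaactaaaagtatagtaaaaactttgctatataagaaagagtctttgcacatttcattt
The windows lie on chr5:17166033-17166282 (minus strand) for DFR, chr5:21938397-21938646 (minus strand) for UF3GT, chr1:24763691-24763940 (plus strand) for MYB90 and chr4:12006210-12006459 (minus strand) for LDOX. The G-box begins 14 bases before the gene start of DFR, 46 bases before that of MYB90, and 171 and 128 bases before that of UF3GT. No CACGTG is in the LDOX window, nor in those of PAP1, EGL3 and AT5MAT. Thus 3 of the 7 anthocyanin members had a G-box in this window, against 6.49% of 27437 promoters of the same length and 5.93% of the 270 windows of members.

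Over all members, no motif searched, the G-box included, differed from its share of all promoters by more than a few percentage points. With both strands searched, the CRT/DRE core CCGAC, which CBF factors bind, was in 11.5% of the members' windows and in 12% of all promoters. The W-box (TTGACC or TTGACT), bound by WRKY factors, was in 26.7% of members and 28.4% of all, and in 5 of the 6 members of sulfur use described below, a set picked in part after its values were seen. The evening element AAAATATC, known from clock-controlled genes, was in 3.33% of members and 5.9% of all, and the CCA1 site AAAAATCT in 4.44% and 6.69%. The abscisic acid element (ACGTGGC or ACGTGTC), some forms of which overlap the G-box, was in 5.56% of members and 6.39% of all. The E-box CANNTG, which includes the G-box, was in 58.9% and 55.3%. The auxin element (TGTCTC or TGTCGG) was in 16.7% and 14.7%, the TATA box TATAAA in 47.4% of both, the site II element (TGGGCC or TGGGCT) in 18.5% and 19.2%, and the I-box GATAAG in 13.0% and 12.3%. The telo box AAACCCTA was in 4.07% and 4.49%, the heat shock element GAANNTTC in 10.7% and 9.55%, and the GCC box GCCGCC in 1.11% and 1.87%. A match is a run of letters and not a shown binding site.

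Glucosinolate synthesis gave the largest number of members of any pathway list, 12 of 36 genes. By annotated role they touch most steps of the methionine-derived branch. Whether each of them, SOT16 and IMD3 included, acts in that branch, or only there, was not tested. BCAT4 removes the amino group of methionine, and BAT5 carries the product into the plastid. IMS2 (also MAM3), IPMI1 and IMD1 lengthen the chain. IMD3 is of the same family as IMD1, a family that also serves leucine synthesis. CYP79F2 and CYP83A1 make the aldoxime and oxidize it, SUR1 cleaves off the sulfur donor, SOT16 and SOT17 add sulfate, and FMO GS-OX3 oxidizes the side chain.

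IMS2 stood at 42.9, 39.7 and 44.9 CPM at 0 °C and 55.5, 57.2 and 55.4 CPM at 4 °C. It had 285, 297 and 299 CPM at 10 °C and 77.2, 82.1 and 76.9 CPM at 22 °C. IPMI1 stood at 9.11, 10.5 and 10.3 CPM at 0 °C and 32.8, 31.3 and 33.5 CPM at 4 °C. It had 107, 109.5 and 107 CPM at 10 °C and 36.6, 41.1 and 36.8 CPM at 22 °C. CYP79F2 stood at 5.02, 5.15 and 5.72 CPM at 0 °C and 26.3, 25.2 and 23.4 CPM at 4 °C. It had 86.9, 89.2 and 88.6 CPM at 10 °C and 28, 28.1 and 26.9 CPM at 22 °C. In all 3 genes the libraries at 10 °C were clear of the rest, the libraries at 0 °C were lowest, and 22 °C came second. SOT17 had the largest ratio of 10 to 0 °C of the 12, with 2.12 ± 0.376 CPM at 0 °C, 13.2 ± 0.36 CPM at 4 °C, 50.6 ± 1.51 CPM at 10 °C and 19.7 ± 0.831 CPM at 22 °C. CYP83A1 (84.3 ± 2.51 CPM at 0 °C, 174 ± 5.74 CPM at 4 °C, 355 ± 4.62 CPM at 10 °C and 165 ± 3.25 CPM at 22 °C) and IMD1 (64.3 ± 1.54 CPM at 0 °C, 68 ± 0.322 CPM at 4 °C, 325 ± 4.34 CPM at 10 °C and 141 ± 5.48 CPM at 22 °C) had the highest CPM of the 12, which is not corrected for transcript length. BCAT4 was the closest to the edge of the rule, with 107 ± 2.17 CPM at 0 °C, 99.7 ± 3.96 CPM at 4 °C, 249 ± 2.3 CPM at 10 °C and 124 ± 5.41 CPM at 22 °C. After TMM scaling 6 of the 12 still met the rule.

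**Figure D3:**
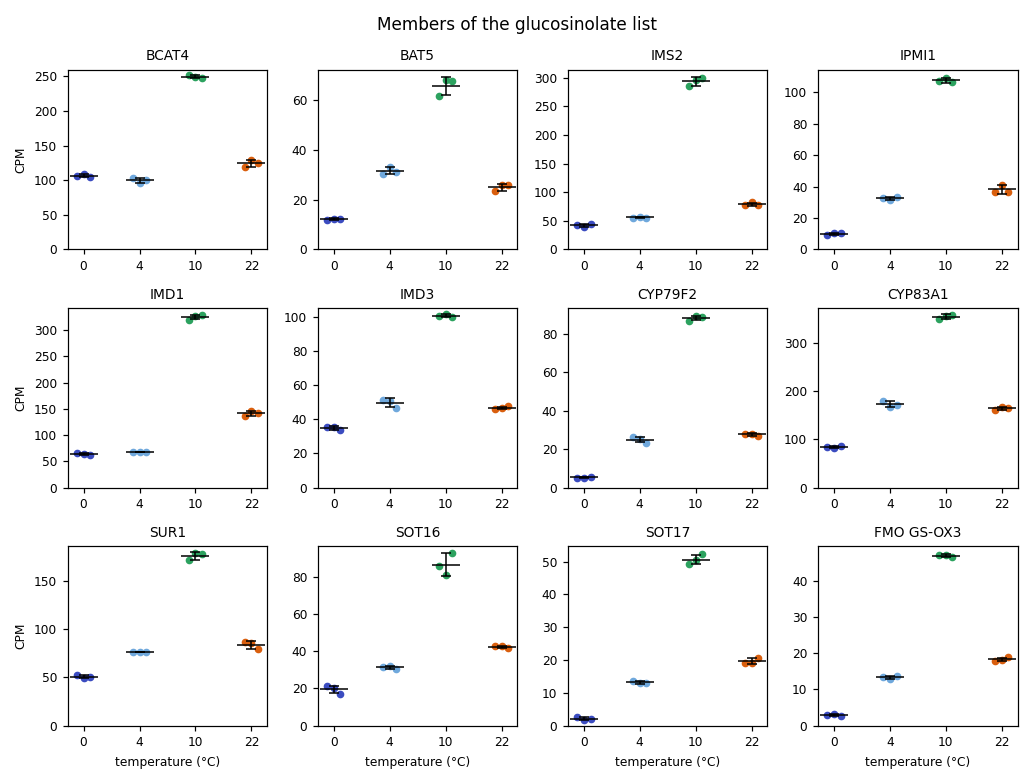
CPM of the 12 members of the glucosinolate list by temperature in °C, with points for the 3 libraries and black marks for the mean ± SD. Every panel has its highest points at 10 °C, and CYP79F2, SOT17 and FMO GS-OX3 are near the axis at 0 °C, at 5.29, 2.12 and 2.93 CPM.

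At 0 against 22 °C 10 of the 12 were lower, 1 was higher and 1 did not pass, with a median log2 fold change of -0.65 (background 38.8% lower and 35.5% higher). SOT17 (-2.79 ± 0.09, adjusted p = 2.22e-11), FMO GS-OX3 (-2.21 ± 0.07, adjusted p = 2.19e-11) and CYP79F2 (-1.96 ± 0.06, adjusted p = 1.01e-11) fell most. BCAT4 was higher (0.21 ± 0.04, adjusted p = 0.000586), but with total counts it was lower by the test at -0.21 and with upper-quartile factors it was at -0.025 and not called. With total counts all 12 were lower, and with upper-quartile factors 11 were. At 4 against 22 °C 3 were higher and 6 lower (background 36.3% and 37.6%), and with total counts or upper-quartile factors 1 was higher and 9 lower. IMD1 (-0.92 ± 0.03, adjusted p = 9.2e-11) fell most there, and BAT5 (0.47 ± 0.06, adjusted p = 1.4e-05) rose most.

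The genes of the list that are not members went partly the same way. Of 23 tested, 14 were higher and 5 lower at 10 than at 22 °C (background 32.4% and 32.3%). Their median log2 fold change was 0.44, and total counts turn the sign of 1 of these calls. CYP79F1, the near-identical neighbour of CYP79F2, averaged 46.1 ± 0.905 CPM at 0 °C, 83 ± 4.99 CPM at 4 °C, 154 ± 2.99 CPM at 10 °C and 98.6 ± 5.99 CPM at 22 °C, and how reads were shared between the pair bears on both. MAM1, which makes shorter chains beside IMS2, had 152 ± 1.59 CPM at 0 °C, 181 ± 5.04 CPM at 4 °C, 235 ± 3.22 CPM at 10 °C and 230.3 ± 14.9 CPM at 22 °C. The indole branch enzymes CYP79B2 (4.58 ± 0.132 CPM at 0 °C, 10.6 ± 0.852 CPM at 4 °C, 96.3 ± 2.51 CPM at 10 °C and 55.9 ± 3.36 CPM at 22 °C), CYP79B3 (7.35 ± 0.429 CPM at 0 °C, 5.26 ± 0.454 CPM at 4 °C, 72.4 ± 1.51 CPM at 10 °C and 48.8 ± 1.79 CPM at 22 °C) and CYP83B1 (31.8 ± 0.18 CPM at 0 °C, 29.9 ± 1.83 CPM at 4 °C, 239 ± 9.14 CPM at 10 °C and 145 ± 1.95 CPM at 22 °C) were high at 10 and 22 °C and low at 0 and 4 °C, and missed the ratio through their level at 22 °C. MYB28, the chief regulator of the methionine branch, had 10.7 ± 0.485 CPM at 0 °C, 25.3 ± 1.97 CPM at 4 °C, 73.2 ± 0.401 CPM at 10 °C and 47.3 ± 4.04 CPM at 22 °C. FMO GS-OX4 ran the other way, with 2208 ± 69.2 CPM at 0 °C, 1307 ± 41.2 CPM at 4 °C, 145 ± 1.26 CPM at 10 °C and 42.6 ± 1.86 CPM at 22 °C.

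The list of nitrate and ammonium genes held 3 members of 32, NRT2:1, NRT1.1 and UPM1. NRT2:1 is the main high-affinity nitrate transporter of the root. It stood at 1.64, 2.32 and 2.36 CPM at 0 °C and 1.56, 1.77 and 1.47 CPM at 4 °C. It had 43.2, 40.2 and 41 CPM at 10 °C and 7.71, 7.76 and 7.79 CPM at 22 °C. Levels at 0 and 4 °C were below those at 22 °C, so the gene stood above its control level at 10 °C and below it in the colder treatments. NRT1.1, a transporter that also senses nitrate, stood at 67, 59.9 and 65.1 CPM at 0 °C and 171, 167 and 159 CPM at 4 °C. It had 419, 405 and 428 CPM at 10 °C and 213, 209 and 202 CPM at 22 °C. UPM1, which makes the precursor of the siroheme cofactor of nitrite and sulfite reductases, varied widely between libraries at 6.16, 11.1 and 0.213 CPM at 0 °C and 9.8, 22.3 and 12.5 CPM at 4 °C. It had 59.5, 51.9 and 30.9 CPM at 10 °C and 24.3, 20.3 and 6.6 CPM at 22 °C. It passed none of the tests between the other temperatures.

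Further members with related roles were picked after their values were seen. RFNR2 and RFNR1 are root-type ferredoxin reductases, which pass electrons from NADPH to ferredoxin, and FD3 is a root-type ferredoxin. RFNR2 stood at 27, 27.5 and 28.5 CPM at 0 °C and 34.2, 38.1 and 34.8 CPM at 4 °C. It had 269, 262 and 263 CPM at 10 °C and 62.7, 62.6 and 65.4 CPM at 22 °C. RFNR1 averaged 5.88 ± 0.238 CPM at 0 °C, 12.4 ± 0.838 CPM at 4 °C, 34.3 ± 0.998 CPM at 10 °C and 16.2 ± 0.205 CPM at 22 °C and FD3 81.2 ± 1.86 CPM at 0 °C, 109 ± 4.74 CPM at 4 °C, 233 ± 5.34 CPM at 10 °C and 65.1 ± 4.69 CPM at 22 °C. The oxidative pentose phosphate pathway, a source of NADPH in roots, gave G6PD3 (9.05 ± 0.438 CPM at 0 °C, 19.6 ± 0.917 CPM at 4 °C, 60.5 ± 1.67 CPM at 10 °C and 14.2 ± 1.63 CPM at 22 °C), the 6-phosphogluconate dehydrogenase gene AT1G64190 (38.3 ± 1.22 CPM at 0 °C, 60.8 ± 1.58 CPM at 4 °C, 130.0 ± 3.77 CPM at 10 °C and 62.9 ± 1.01 CPM at 22 °C) and the transaldolase gene TRA2 (87.5 ± 2.12 CPM at 0 °C, 128 ± 0.847 CPM at 4 °C, 305 ± 2.87 CPM at 10 °C and 91.3 ± 1.51 CPM at 22 °C). PPC3, a phosphoenolpyruvate carboxylase that refills the carbon skeletons used for amino acids, averaged 63.3 ± 6.57 CPM at 0 °C, 223 ± 17.61 CPM at 4 °C, 522 ± 6.4 CPM at 10 °C and 168 ± 19.4 CPM at 22 °C. HB1, a haemoglobin that scavenges nitric oxide, averaged 3.12 ± 0.531 CPM at 0 °C, 3.35 ± 0.375 CPM at 4 °C, 10.2 ± 0.626 CPM at 10 °C and 3.8 ± 0.396 CPM at 22 °C. After TMM scaling NRT2:1, RFNR2, UPM1 and G6PD3 still met the rule.

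Of the list's 3 members, NRT2:1 and NRT1.1 were lower at both 0 and 4 °C than at 22 °C. Of all genes tested, 38.8% were lower at 0 °C, 37.6% at 4 °C and 29.4% at both. NRT2:1 was lower at both 0 °C (-1.45 ± 0.11, adjusted p = 1.53e-07) and 4 °C (-2.15 ± 0.12, adjusted p = 4.34e-09). FD3 was higher at both 0 °C (0.74 ± 0.06, adjusted p = 9.04e-08) and 4 °C (0.87 ± 0.06, adjusted p = 1.75e-08). TRA2 was higher at 0 °C (0.36 ± 0.03, adjusted p = 9.55e-08), but with total counts it was at -0.049 and not called. G6PD3 was lower at 0 °C (-0.22 ± 0.07, adjusted p = 0.0159), a call lost in DESeq2 (adjusted p = 0.0507) and without the second or the third library at 0 °C or the second at 22 °C (largest adjusted p = 0.0782). Of the list's 25 other tested genes, 11 were higher and 12 lower at 10 than at 22 °C (background 32.4% and 32.3%). Among them NIA2, the main nitrate reductase, averaged 554 ± 24.7 CPM at 0 °C, 502 ± 16.8 CPM at 4 °C, 758 ± 15.3 CPM at 10 °C and 1307 ± 67.4 CPM at 22 °C, and nitrite reductase NIR1 263 ± 5.58 CPM at 0 °C, 418 ± 14.9 CPM at 4 °C, 508 ± 11.2 CPM at 10 °C and 409.6 ± 2.64 CPM at 22 °C. NRT3.1 (WR3), the partner protein of NRT2:1, averaged 19.7 ± 0.142 CPM at 0 °C, 46.4 ± 1.63 CPM at 4 °C, 67.9 ± 2.67 CPM at 10 °C and 20.5 ± 0.818 CPM at 22 °C.

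In sulfur use, 4 of 23 list genes were members: the adenosine 5'-phosphosulfate (APS) reductases APR1 and APR3, ATSDI1 and AT5G26220. APS reductases catalyse the controlling step of sulfate reduction. APR1 stood at 20.7, 21.1 and 21.8 CPM at 0 °C and 47.1, 45.9 and 44.3 CPM at 4 °C. It had 159.7, 166 and 164 CPM at 10 °C and 61.9, 68 and 67.1 CPM at 22 °C, the libraries at 22 °C being second and those at 0 °C lowest. APR3 differed from it away from 10 °C, at 104 ± 2.54 CPM at 0 °C, 106 ± 1.05 CPM at 4 °C, 238 ± 4.69 CPM at 10 °C and 87.7 ± 1.82 CPM at 22 °C. The third isoform, APR2, was no member and had its highest mean at 4 °C, with 222 ± 2.77 CPM at 0 °C, 492 ± 7.62 CPM at 4 °C, 239 ± 3.89 CPM at 10 °C and 99.3 ± 4.08 CPM at 22 °C. ATSDI1, known as a repressor of glucosinolate synthesis under sulfur shortage, averaged 1.66 ± 0.246 CPM at 0 °C, 2.5 ± 0.315 CPM at 4 °C, 13.1 ± 0.708 CPM at 10 °C and 4.68 ± 0.209 CPM at 22 °C. AT5G26220, a ChaC-like protein listed as GGCT2;1 that breaks down glutathione, averaged 4.35 ± 0.715 CPM at 0 °C, 7.61 ± 0.494 CPM at 4 °C, 16.9 ± 2.02 CPM at 10 °C and 4.83 ± 0.269 CPM at 22 °C.

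Outside the list, APK (APS kinase), which makes the sulfate donor that SOT16 and SOT17 use, averaged 22.2 ± 0.435 CPM at 0 °C, 56.1 ± 2.15 CPM at 4 °C, 127 ± 3.5 CPM at 10 °C and 63.4 ± 1.07 CPM at 22 °C. MS2, a methionine synthase, had the second highest CPM of the members, at 141, 127 and 138 CPM at 0 °C and 463, 474 and 432 CPM at 4 °C. It had 1357, 1334 and 1355 CPM at 10 °C and 183, 185 and 169 CPM at 22 °C. Its libraries at 4 °C were second, at well over 2 times the level at 22 °C. APK and MS2 were chosen after their values were seen. Of the list's 4 members 2 were lower and 1 higher at 0 against 22 °C (background 38.8% and 35.5%), and 2 lower and 2 higher at 4 against 22 °C (37.6% and 36.3%). APR1 (-1.21 ± 0.04, adjusted p = 8.24e-11), APK (-1.09 ± 0.04, adjusted p = 7.26e-11) and ATSDI1 (-1.06 ± 0.13, adjusted p = 9.35e-06) were lower at 0 °C, and APR3 was higher (0.68 ± 0.03, adjusted p = 1.04e-09). MS2 was higher at 4 °C (1.48 ± 0.04, adjusted p = 5.18e-12). Of the list's 19 other tested genes, 11 were higher and 6 lower at 10 than at 22 °C (background 32.4% and 32.3%). Among them sulfite reductase SIR averaged 168 ± 4.47 CPM at 0 °C, 226 ± 3.36 CPM at 4 °C, 503 ± 5.88 CPM at 10 °C and 272 ± 6.82 CPM at 22 °C. The root transporter SULTR1;2 averaged 73.8 ± 5.02 CPM at 0 °C, 68.6 ± 6.0 CPM at 4 °C, 260.4 ± 2.87 CPM at 10 °C and 136 ± 9.08 CPM at 22 °C. APR1, ATSDI1 and MS2 met the rule after TMM scaling.

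**Figure D4:**
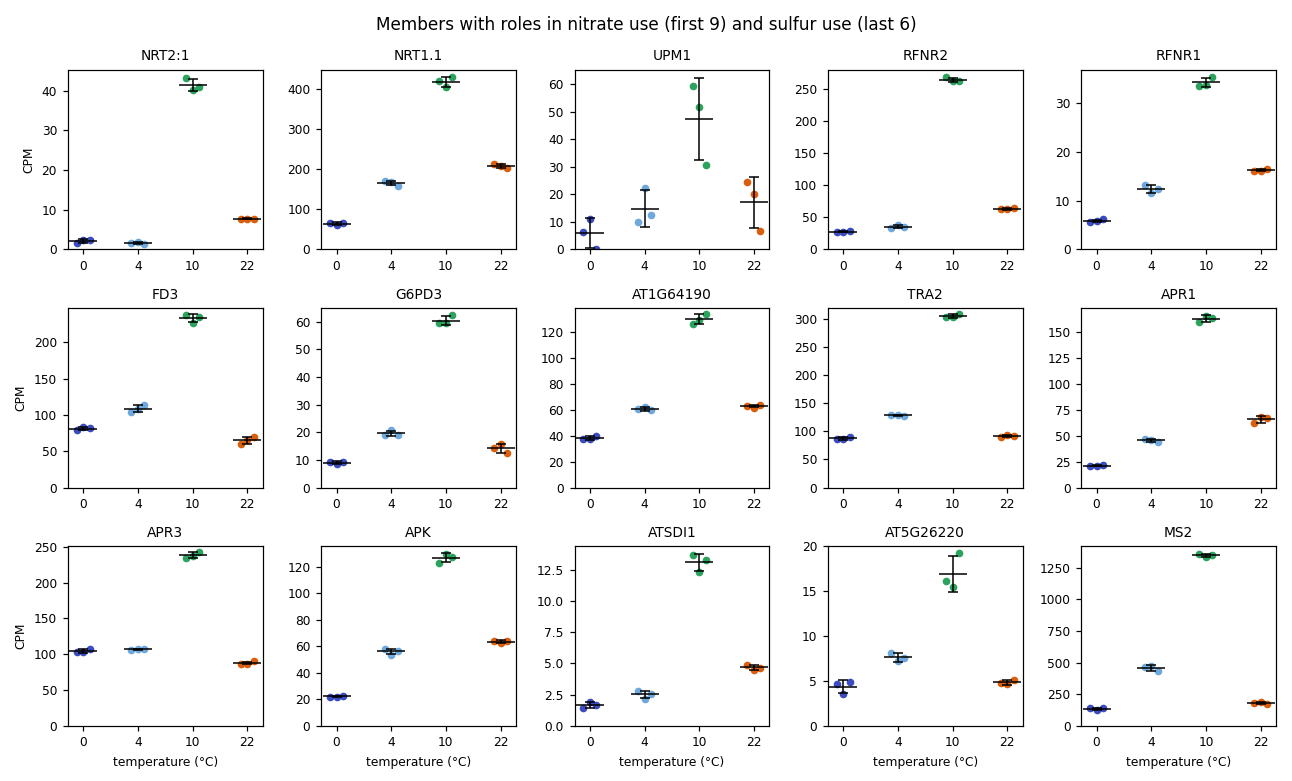
CPM of 9 members with roles in nitrate use and 6 in sulfur use by temperature in °C, with points for the 3 libraries and black marks for the mean ± SD. All panels peak at 10 °C, UPM1 has the widest spread between libraries (SD 14.8 CPM at 10 °C), and NRT2:1, RFNR2 and APR1 stand lower at 0 and 4 °C than at 22 °C.

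Several members are known mainly from roots, and 2 root hair protein genes, PRP1 and PRP3, belong to the list of root markers. PRP1, a proline-rich wall protein, averaged 0.997 ± 0.18 CPM at 0 °C, 5.35 ± 0.385 CPM at 4 °C, 14.1 ± 1.25 CPM at 10 °C and 3.93 ± 0.448 CPM at 22 °C, and PRP3 9.32 ± 0.639 CPM at 0 °C, 20.0 ± 1.58 CPM at 4 °C, 44.6 ± 1.32 CPM at 10 °C and 17.58 ± 1.85 CPM at 22 °C. The root hair genes RHS18 (1.0 ± 0.0606 CPM at 0 °C, 2.59 ± 0.276 CPM at 4 °C, 8.89 ± 0.373 CPM at 10 °C and 3.53 ± 0.333 CPM at 22 °C), RHS19 (3.9 ± 0.351 CPM at 0 °C, 8.33 ± 0.719 CPM at 4 °C, 30.5 ± 1.13 CPM at 10 °C and 13.9 ± 0.32 CPM at 22 °C) and G3Pp2 (0.752 ± 0.125 CPM at 0 °C, 1.57 ± 0.274 CPM at 4 °C, 7.16 ± 0.071 CPM at 10 °C and 2.63 ± 0.342 CPM at 22 °C) had 22 °C as the next highest temperature. These 3 were picked after their values were seen. PRP1 and PRP3 were both lower at 0 than at 22 °C (background 38.8%) and higher at 4 than at 22 °C (36.3%), the call at 4 °C being lost for 1 of them with total counts or upper-quartile factors. IRT1, the root's iron importer, stood at 2.69, 2.56 and 1.59 CPM at 0 °C and 14.1, 12.3 and 18.9 CPM at 4 °C. It had 30.8, 34.6 and 34.9 CPM at 10 °C and 8.51, 6.24 and 8.06 CPM at 22 °C. NAS4, which makes the metal chelator nicotianamine, averaged 11.4 ± 0.345 CPM at 0 °C, 8.23 ± 0.706 CPM at 4 °C, 24.2 ± 1.53 CPM at 10 °C and 7.62 ± 0.561 CPM at 22 °C, and the iron store FER1 8.55 ± 0.435 CPM at 0 °C, 11.8 ± 1.23 CPM at 4 °C, 24 ± 2.14 CPM at 10 °C and 11.3 ± 2.08 CPM at 22 °C, 3 members of 42 in the list of iron, zinc and copper genes. None of these 3 met the rule after TMM scaling. The summed level of the 20 root markers was 1504 to 1580 CPM at 0 °C, 1704 to 1779 CPM at 4 °C, 3049 to 3243 CPM at 10 °C and 2868 to 2899 CPM at 22 °C. These sums are on the deposited scale, which places 10 °C higher and 0 °C lower than TMM factors do. The order of 10 and 22 °C, or of 0 and 4 °C, is therefore not read from them. Of the 17 tested root markers that are not members, 7 were higher and 3 lower at 10 than at 22 °C (background 32.4% and 32.3%). No root marker was at 0 in all libraries, and the part of root RNA in the levels of NRT2:1, RFNR2, IRT1 and the root hair genes was not tested.

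Cytokinin, a hormone of cell division and nutrient status, was represented by 4 of 25 list genes. ARR7, a type-A response regulator that feeds back on the cytokinin signal, stood at 8.0, 8.55 and 7.87 CPM at 0 °C and 20.9, 20.0 and 20.0 CPM at 4 °C. It had 60.2, 64.4 and 65.5 CPM at 10 °C and 15.6, 16.3 and 15.9 CPM at 22 °C. ARR15, its closest relative, averaged 0.614 ± 0.159 CPM at 0 °C, 1.59 ± 0.361 CPM at 4 °C, 6.22 ± 0.648 CPM at 10 °C and 1.64 ± 0.238 CPM at 22 °C. CRF5, a cytokinin response factor, averaged 0.437 ± 0.119 CPM at 0 °C, 1.72 ± 0.225 CPM at 4 °C, 8.99 ± 0.616 CPM at 10 °C and 4.4 ± 0.271 CPM at 22 °C, and CYP735A2, which makes trans-zeatin, averaged 0.663 ± 0.127 CPM at 0 °C, 1.18 ± 0.0833 CPM at 4 °C, 6.61 ± 0.304 CPM at 10 °C and 2.29 ± 0.296 CPM at 22 °C. All 4 were lower at 0 than at 22 °C (background 38.8%), among them CRF5 (-2.90 ± 0.17, adjusted p = 1.02e-08). At 4 against 22 °C ARR7 was higher (0.48 ± 0.05, adjusted p = 3.17e-06) while CRF5 (-1.22 ± 0.14, adjusted p = 7.27e-06) and CYP735A2 (-0.82 ± 0.16, adjusted p = 0.000551) were lower. ARR15 was not called there (background 36.3% higher and 37.6% lower). Of the 20 other tested genes of the list, 9 were higher and 4 lower at 10 than at 22 °C (background 32.4% and 32.3%). ARR7, ARR15 and CYP735A2 met the rule after TMM scaling.

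Cell wall members were EXPA5, EXPA10 and EXPA15, expansins that loosen walls, and XTH31, a xyloglucan-modifying enzyme, 4 of 37 list genes. XTH31 averaged 7.88 ± 0.628 CPM at 0 °C, 41.1 ± 1.81 CPM at 4 °C, 216 ± 3.51 CPM at 10 °C and 73.9 ± 2.26 CPM at 22 °C. EXPA10 averaged 7.41 ± 0.142 CPM at 0 °C, 44.3 ± 1.16 CPM at 4 °C, 90.3 ± 3.11 CPM at 10 °C and 33.6 ± 1.15 CPM at 22 °C and EXPA15 9.79 ± 0.777 CPM at 0 °C, 20.5 ± 1.08 CPM at 4 °C, 93.9 ± 2.32 CPM at 10 °C and 40.7 ± 1.92 CPM at 22 °C. EXPA5 varied between libraries, at 2.11, 0 and 0 CPM at 0 °C and 13.3, 2.1 and 15.7 CPM at 4 °C. It had 39, 49.1 and 45.4 CPM at 10 °C and 12.5, 22.5 and 26.1 CPM at 22 °C. XTH31 (-2.80 ± 0.06, adjusted p = 2.03e-13) and EXPA5 (-4.49 ± 0.89, adjusted p = 0.000582) were among the 5 largest falls at 0 against 22 °C. Of EXPA5 2 of the 3 libraries at 0 °C were listed at 0, so its fold change depends on the fit. GH9C2, an endoglucanase, was among the 15 members with the highest CPM at 43.5 ± 2.45 CPM at 0 °C, 80.02 ± 6.09 CPM at 4 °C, 265 ± 2.59 CPM at 10 °C and 86.6 ± 9.09 CPM at 22 °C.

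The member with the highest CPM, a scale not corrected for transcript length, was RBCS1B, a Rubisco small subunit gene, at 530.5, 549 and 533 CPM at 0 °C and 661, 654 and 696 CPM at 4 °C. It had 1909, 1899 and 1912 CPM at 10 °C and 886, 886 and 938 CPM at 22 °C. It has near-identical copies in the genome, between which reads can be split with error. The ribosomal protein S5 family gene AT1G59359 averaged 133 ± 6.01 CPM at 0 °C, 226 ± 9.93 CPM at 4 °C, 474 ± 14.3 CPM at 10 °C and 213 ± 3.71 CPM at 22 °C, the methyltransferase gene AT1G73600 28.9 ± 0.588 CPM at 0 °C, 111 ± 4.55 CPM at 4 °C, 542 ± 15.5 CPM at 10 °C and 131 ± 1.54 CPM at 22 °C and GSTU20, a glutathione transferase, 116 ± 1.46 CPM at 0 °C, 151 ± 5.96 CPM at 4 °C, 360.3 ± 12.4 CPM at 10 °C and 179 ± 11.7 CPM at 22 °C. CAD9, of the cinnamyl alcohol dehydrogenase family, averaged 54 ± 3.1 CPM at 0 °C, 99.9 ± 1.16 CPM at 4 °C, 263 ± 2.12 CPM at 10 °C and 122 ± 1.67 CPM at 22 °C. In carbohydrate use, APL3, a large subunit of the enzyme that opens starch synthesis, averaged 6.28 ± 0.935 CPM at 0 °C, 22.1 ± 1.36 CPM at 4 °C, 88.1 ± 1.1 CPM at 10 °C and 11.5 ± 0.483 CPM at 22 °C, and the sucrose importer SUC1 35.9 ± 1.28 CPM at 0 °C, 66 ± 4.16 CPM at 4 °C, 159.6 ± 6.86 CPM at 10 °C and 65.4 ± 0.662 CPM at 22 °C. Single members of other lists were the phosphate transporter PHT1;1 (37.4 ± 3.19 CPM at 0 °C, 92 ± 4.28 CPM at 4 °C, 210.4 ± 5.85 CPM at 10 °C and 90.4 ± 3.69 CPM at 22 °C), the auxin importer LAX3 (7.27 ± 1.25 CPM at 0 °C, 19.7 ± 0.749 CPM at 4 °C, 46.8 ± 1.83 CPM at 10 °C and 21.3 ± 2.05 CPM at 22 °C), the gibberellin oxidase GA20OX1 (0.535 ± 0.0444 CPM at 0 °C, 1.31 ± 0.259 CPM at 4 °C, 5.04 ± 0.407 CPM at 10 °C and 1.3 ± 0.043 CPM at 22 °C), the growth regulator ANT (6.08 ± 0.351 CPM at 0 °C, 13.7 ± 1.49 CPM at 4 °C, 29.6 ± 1.49 CPM at 10 °C and 14.1 ± 1.26 CPM at 22 °C) and UGT74F2, which glycosylates salicylate (24.7 ± 1.26 CPM at 0 °C, 27.4 ± 1.68 CPM at 4 °C, 81.4 ± 2.89 CPM at 10 °C and 35.6 ± 2.58 CPM at 22 °C). TBL26, of a family that acetylates wall polymers, averaged 3.06 ± 0.381 CPM at 0 °C, 9.04 ± 1.05 CPM at 4 °C, 40.1 ± 0.503 CPM at 10 °C and 2.28 ± 0.281 CPM at 22 °C.

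Protein families were counted by annotated name, with families chosen after the members were seen. By this count, 12 members (4.40%) were cytochrome P450 enzymes, against 0.845% of the 21293 tested genes, and 8 (2.93%) were glycosyltransferases, against 0.761%. CYP81D8 averaged 3.37 ± 0.279 CPM at 0 °C, 4.68 ± 0.106 CPM at 4 °C, 21.2 ± 2.01 CPM at 10 °C and 4.35 ± 0.295 CPM at 22 °C and CYP82C4, which hydroxylates an iron-mobilizing coumarin, 0.48 ± 0.132 CPM at 0 °C, 1.1 ± 0.0435 CPM at 4 °C, 9.43 ± 1.22 CPM at 10 °C and 2.38 ± 0.451 CPM at 22 °C. The glycosyltransferase neighbours UGT73C6 (3.39 ± 1.04 CPM at 0 °C, 8.73 ± 0.612 CPM at 4 °C, 31 ± 0.636 CPM at 10 °C and 4.03 ± 0.341 CPM at 22 °C) and DOGT1 (9.78 ± 0.84 CPM at 0 °C, 25.2 ± 1.27 CPM at 4 °C, 77.6 ± 3.89 CPM at 10 °C and 27.9 ± 2.06 CPM at 22 °C) lie side by side on chromosome 2. The members held 5 such pairs of adjacent protein-coding genes, 10 genes in all, of which the MATE pair and this pair share a family. The list of ABC transporters held 3 members of 124 genes, ABCC9, ABCC10 and the vacuolar importer ABCC3 (20.9 ± 2.67 CPM at 0 °C, 50.8 ± 6.17 CPM at 4 °C, 105 ± 2.77 CPM at 10 °C and 27.5 ± 3.81 CPM at 22 °C). Extensins and proline-rich proteins made up 6 (2.2%) against 0.211%, receptor and protein kinases 8 (2.93%) against 3.70%, and pentatricopeptide or tetratricopeptide proteins 7 (2.56%) against 2.42%. Genes named for embryo-lethal or pigment-defective mutants made up 8 (2.93%) against 1.36%. Members that act in plastids or other organelles included PRIN2, a part of the plastid transcription machinery, at 7.64 ± 1.05 CPM at 0 °C, 14.8 ± 0.278 CPM at 4 °C, 36.6 ± 0.581 CPM at 10 °C and 13 ± 0.726 CPM at 22 °C, and WHY3, a DNA-binding protein of organelles, at 8.59 ± 0.401 CPM at 0 °C, 16.3 ± 0.292 CPM at 4 °C, 38.3 ± 1.71 CPM at 10 °C and 8.51 ± 0.356 CPM at 22 °C.

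Of 66 lists, 37 held no member, at a share of members of 0.813% over all loci. A list without a member may still hold genes with a smaller peak at 10 °C. The lists without a member include abscisic acid, jasmonate, ethylene, the clock, light signalling, heat shock, ribosome biogenesis, cell division, aquaporins, photosystem and antenna genes, and the WRKY and NAC factors. In the CBF and cold-regulated list all 21 tested genes were higher at 0 and at 4 than at 22 °C (background 35.5% and 36.3%). The medians were 5.63 and 5.12 on the log2 scale. At 10 against 22 °C 18 were higher and 2 lower (background 32.4% and 32.3%), with a list median of 2.03. None met the rule.

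The rule fixes no order among 0, 4 and 22 °C, so these contrasts were tested over the members, with the limit that a gene raised at 0 or 4 °C as far as at 10 °C could not be a member. At 0 against 22 °C 52 members were higher (19.0%) and 143 lower (52.4%), where 35.5% of all genes tested were higher and 38.8% lower. Their median log2 fold change was -0.30 and that of all genes -0.07. At 4 against 22 °C 129 were higher (47.3%) and 61 lower (22.3%), against 36.3% and 37.6% of all genes, with medians of 0.19 for members and -0.03 for all genes. At 0 against 4 °C 21 were higher (7.69%) and 181 lower (66.3%), against 29.2% and 28.8%, with medians of -0.52 and -0.01. The levels at 0, 4 and 22 °C also chose the members, so the shares describe them and nothing further is read from their distance to those of all genes. With total counts in place of TMM factors, which move the median of all genes by -0.41 at 0 against 22 °C, 25 members were higher and 202 lower there, against 27.6% higher among all calls in place of 47.8%. Upper-quartile factors gave 32 and 178, with 35.4% higher among all calls. At 4 against 22 °C both scalings gave more members higher than lower, 101 and 79 with total counts and 102 and 80 with upper-quartile factors. At 0 against 4 °C total counts gave 10 higher and 219 lower, with 26.2% higher among all calls in place of 50.3%.

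**Figure D5:**
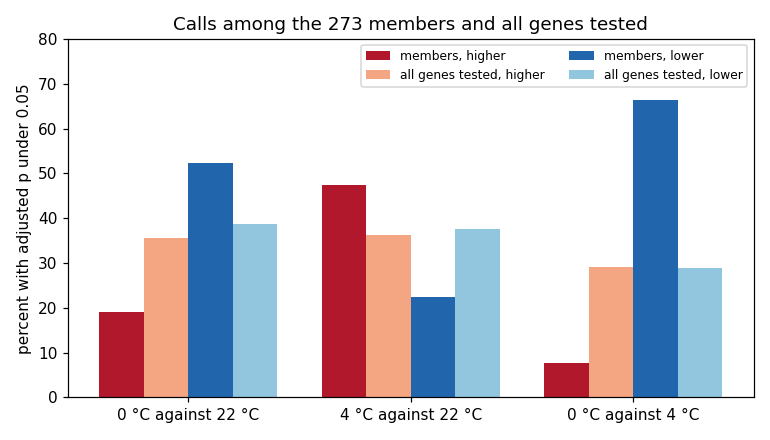
Bars give the percent of the 273 members and of the 21293 genes tested that were higher or lower with an adjusted p under 0.05 in the edgeR test, for 0 against 22 °C, 4 against 22 °C and 0 against 4 °C. Members were lower in 52.4% at 0 against 22 °C and in 66.3% at 0 against 4 °C and higher in 47.3% at 4 against 22 °C. Levels at these temperatures also chose the members.

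Crossing both contrasts with 22 °C, 46 members were higher at both 0 and 4 °C (16.8%, against 28.5% of all genes tested) and 54 were lower at both (19.8%, against 29.4%). Another 43 were lower at 0 °C and higher at 4 °C (15.8%, against 2.14%). The reverse, higher at 0 °C and lower at 4 °C, held for 1 member (0.366%, against 2.09%), and 32 passed neither test (11.7%, against 14.0%). The 2 contrasts share the libraries at 22 °C, and the rule used the levels in all of them, so these shares are a description. Members that reached well above control in each cold treatment were DTX1 at 0 °C (3.73 ± 0.09, adjusted p = 1.56e-12) and 4 °C (3.39 ± 0.09, adjusted p = 4.46e-12), and the hydrolase gene AT3G15650 at 0 °C (2.06 ± 0.11, adjusted p = 2.07e-09) and 4 °C (2.31 ± 0.10, adjusted p = 5.56e-10). ChlAKR, a plastid aldo-keto reductase that detoxifies reactive carbonyls, was higher at 4 °C (2.97 ± 0.08, adjusted p = 6.38e-12), as was TBL26 (2.12 ± 0.11, adjusted p = 2.95e-09). The largest falls at 4 against 22 °C, beside NRT2:1, were in PILS7, listed at 0 in all 3 libraries at 4 °C (adjusted p = 0.00101), the sugar transporter family gene AT5G18840 (-2.40 ± 0.27, adjusted p = 3.74e-06), CYP702A5 (-2.37 ± 0.12, adjusted p = 2.3e-09) and GSTF14 (-1.78 ± 0.06, adjusted p = 5.82e-11). CYP78A6, of a family that promotes seed and organ growth, was lower at 0 °C against 22 °C (-3.17 ± 0.15, adjusted p = 1.12e-09) and against 4 °C (-2.97 ± 0.15, adjusted p = 6.18e-09).

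At 0 against 4 °C the 5 largest falls were in EXPA5 (-3.66 ± 0.92, adjusted p = 0.00449), MYB90 (-3.36 ± 0.43, adjusted p = 2.63e-05), CYP78A6, the oxygenase gene AT2G48080 (-2.63 ± 0.52, adjusted p = 0.000868) and IRT1 (-2.44 ± 0.21, adjusted p = 7.08e-07). The 5 largest rises were smaller: AT4G12735 (1.75 ± 0.16, adjusted p = 1.4e-06), GSTF14 (1.33 ± 0.06, adjusted p = 3.3e-09), UF3GT (1.06 ± 0.13, adjusted p = 1.24e-05), LDOX (0.97 ± 0.14, adjusted p = 7.07e-05) and NAS4 (0.76 ± 0.08, adjusted p = 5.33e-06).

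The contrasts with 10 °C chose the members and are given as values only. Against 22 °C 270 of the 273 were called higher, against 0 °C 272 and against 4 °C 268, where 32.4%, 36.6% and 30.3% of all genes were called higher. Median log2 fold changes of members were 1.30, 1.69 and 1.08.

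Transcript usage, the share of a gene's reads on each of its transcripts, did not enter the rule, which used gene sums. It is still not independent of the rule, because the sums came from the same transcripts and libraries. Of the members, 52 (19.0%) had 2 or more annotated transcripts, against 17.5% of all loci, and 48 could be tested. At 10 against 22 °C 2 members changed their usage (4.17%, background 5.71%), at 10 against 0 °C 2 (4.17%, background 6.6%) and at 10 against 4 °C 1 (2.08%, background 3.11%), near or below the share of all genes tested (diffSpliceDGE of edgeR with Simes adjustment). Dispersions from genes with several tested transcripts left 1, 0 and 0 calls, and leaving out 1 library gave 1 to 3, 0 to 5 and 0 to 2. At 10 against 0 °C there were 5 calls without the first library at 0 °C and 0 without the second or the third at 10 °C. At 10 against 4 °C there were 0 without the first or the third library at 4 °C or without any 1 of those at 10 °C, and 2 without the third at 22 °C. At 10 against 22 °C there was 1 without the second library at 22 °C. MDAR6, a monodehydroascorbate reductase that recycles vitamin C, had 82.1 ± 0.832% of its CPM on its first transcript at 10 °C. Its share in the other groups was 71.5 ± 2.54% for 0 °C, 72.6 ± 4.35% for 4 °C and 70.4 ± 5.94% for 22 °C (SD, n = 3 each). The adjusted p was 0.000801 against 22 °C and 0.00855 against 4 °C. ChlAKR had 2.64 ± 1.30 CPM on its first transcript at 10 °C, and this transcript was listed at 0 in all 3 libraries at 22 °C (adjusted p = 0.00697). Its share was 5.02 ± 1.07% at 0 °C, 4.97 ± 1.40% at 4 °C and 4.27 ± 2.14% at 10 °C, so 22 °C was the temperature set apart. The whole ChlAKR gene stood at only 3.46 CPM at 22 °C, however, where a share of this size would be near the floor. ASB1, a subunit of anthranilate synthase in tryptophan synthesis, had 3.34 ± 1.38% on its second transcript at 10 °C against 30.4 ± 2.65% at 0 °C (adjusted p = 0.0114). That share was 12.4 ± 3.51% at 4 °C and 1.28 ± 1.17% at 22 °C, so 10 °C stood near the control. BT4, a BTB and TAZ domain protein, had 17.8 ± 2.05% on its second transcript at 10 °C against 32.2 ± 4.32% at 0 °C (adjusted p = 0.0345). For BT4 this share was 28.5 ± 1.25% at 4 °C and 24.9 ± 10.7% at 22 °C. In these genes the peak at 10 °C was thus carried mainly by the first transcript, except in ChlAKR, where the second held 95.7 ± 2.14% at 10 °C.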

How the data were processed

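Total RNA of 12 libraries (4 temperatures, 3 pools of plantlets each) was sequenced, and the authors deposited estimated counts and CPM values per transcript. CPM had been computed by the authors from each library's total estimated count, without TMM factors: recomputing it left differences of at most 5.46e-11. Per the submitters' processing notes, HISAT2 2.2.0, kallisto 0.42.4, edgeR and the build TAIR10 were used, with roles not given. No source names the strand setting, and overlapping and antisense genes may share reads. Of 56132 transcripts, 41623 are annotated and were summed to 33560 loci, and 14509 are assembled. 6 columns matched no sample and were not used. Depth ranged from 32870040 to 41683299 estimated counts.

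Estimated counts as deposited were summed per locus, rounded, filtered with filterByExpr (21293 genes) and fitted over all 12 libraries with the quasi-likelihood test of edgeR 4.0.16 (R 4.3.3, TMM factors, Benjamini-Hochberg adjustment over all genes, threshold 0.05). Transcript usage was tested with diffSpliceDGE. DESeq2 1.42.0, total counts, upper-quartile factors, other filters, a block by replicate number and leaving out each library were alternatives. The fitting was tested on simulated data. Gene names came from RefSeq (TAIR10.1), which held 32818 of the loci, as did the promoter windows.

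The members, the 66 gene lists and the tests were chosen with earlier results of these data known. Genes named by rule are the 5 largest falls and 5 largest rises among members called in each contrast of 0, 4 and 22 °C. Other named members were picked by annotated role after their values were seen.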

Additional observations from a re-analysis of the deposited data

How the results depend on the processing

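The number of members was 273. It was 1184 with a ratio of 1.5, 51 with a ratio of 3 and 111 on the TMM scale, and it was 268 to 281 with 1 library left out. The number of members higher at 0 against 22 °C was 25 with total counts and 32 with upper-quartile factors, in place of 52, and at 0 against 4 °C it was 10 with total counts, in place of 21. With 1 library left out, 46 to 54 members were higher and 133 to 144 lower at 0 against 22 °C, 120 to 133 and 55 to 63 at 4 against 22 °C, and 18 to 23 and 172 to 181 at 0 against 4 °C. BCAT4 at 0 against 22 °C turned to -0.21 with total counts and -0.025 with upper-quartile factors, and TRA2 to -0.049 with total counts. In this contrast the median of all genes moved by -0.41 with total counts and by -0.23 with upper-quartile factors. Beyond these shifts, the cause was not tested.

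Calls of transcript usage were few and moved with most settings. Dispersions from genes with several tested transcripts gave 1, 0 and 0 members at 10 against 22, 0 and 4 °C, a mean of at least 1 CPM gave 3, 2 and 1, and an F test per gene gave 6, 10 and 6. With 1 library left out they were 1 to 3, 0 to 5 and 0 to 2. The cause was not tested. Replicate numbers showed no clear pairing of the samples. Correlations of deviations were -0.095 to 0.244 for libraries of the same number and -0.189 to 0.173 for unlike numbers. With 3 libraries per temperature, these values cannot show whether plates of the same number were handled together. With the replicate block 53 members were higher and 140 lower at 0 against 22 °C, 127 and 61 at 4 against 22 °C, and 22 and 178 at 0 against 4 °C, usage had 1 call at 10 against 0 °C, and all 88 named tests kept their call.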

Other observations

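Among 7823 loci assembled from the reads and not in the annotation, 54 (0.690%) met the same rule for a peak at 10 °C, of 2504 with at least 5 CPM at 10 °C. They have no annotation in the files and were not included in the tests.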
